A study of Homo sapiens with 9 samples.

Results

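The comparison described here set MDA-MB-231 cells given YM-155 for 8 h against untreated cells of the same line. It used 6 of the series' 9 arrays, chosen by their titles alone: 3 labelled control and 3 labelled YM-155 at 8 hours. MDA-MB-231 is a widely used triple-negative breast cancer cell line of human origin. The control cells had no treatment, and neither their harvest time nor a vehicle is given. The 8 h cells received YM-155, dissolved in DMSO and diluted in HBSS, in gradual increments that reached a total of 83 ng/ml, and were harvested before any cell death was seen under the microscope. The other 3 arrays, from cells given 14.6 ng/ml for 20 h, helped to estimate each gene's spread and are quoted only side by side, since dose and time differ together and both treated groups share the controls. All groups were grown in high-glucose medium with serum, and no genetic change is stated for any of them. Nothing says that replicates were separate cultures, so the p-values measure only how far these samples spread, and that spread may be technical.

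YM-155 (sepantronium bromide) is a small cationic naphthoquinone-imidazolium compound that was found in a screen for suppressors of survivin. Survivin, encoded by BIRC5, is an inhibitor of apoptosis protein and a subunit of the chromosomal passenger complex of dividing cells. Cells take the compound up through the solute carrier SLC35F2, and DNA damage has also been described in treated cells. Messenger RNAs of AP-1 and EGR factors are short-lived and are known to change early after many kinds of stress.

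Total RNA was hybridised to whole-transcript arrays, and every value below is a robust multi-array average (RMA) on the log2 scale, so that a difference of 1 is a 2-fold change. The arrays were fitted together in limma for 22109 genes, and a gene is called higher (rose) or lower (fell) where its p, adjusted over all genes by Benjamini-Hochberg, was under 0.05. Array medians lay between 3.1 and 3.2. Over the 11054 genes above the median level, the difference between 2 control arrays had an SD of 0.187 for replicates 1 and 2, but 0.312 and 0.313 for replicate 3 against these. Among the 8 h arrays the SDs were 0.147 for replicates 1 and 2, and 0.217 and 0.221 for replicate 3 against these. Control replicate 3 therefore stood apart, and counts without it are also given for many of the groups below. The summary values also tie: 7.35% of genes had the identical value on 8 h replicates 1 and 2, against 4.74% for control replicates 1 and 2, and 362 genes, 30 of them called, had one value on all 3 of the 8 h arrays, as had 281 genes, 5 of them called, on all 3 control arrays. Among genes listed as markers of a basal-like breast line, VIM, the filament protein vimentin, was at 8.48, 8.49 and 8.76 in control arrays. AXL, a receptor kinase, was at 10.38, 10.39 and 10.89. The keratin gene KRT17, in the same list, was not measured. The oestrogen and progesterone receptor genes ESR1 (2.88, 2.59 and 2.83) and PGR (2.09, 2.02 and 2.02) were low, as is known for this line. None of the 9 leukocyte markers measured and 2 of the 8 fibroblast and endothelial markers lay above the median level, and 0 of these 17 were called in either direction.

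At 8 h, 1310 genes were higher (5.93% of all genes tested) and 1388 lower (6.28%), together 12.2%. The rises were larger than the falls. The median size was 0.60 among the genes that rose and 0.52 among those that fell. At least 2-fold, 232 genes were higher (1.05%) and 63 lower (0.285%), and at least 4-fold, 18 were higher and 2 lower. Among genes above the median level 21.9% were called, 10.7% higher and 11.2% lower, and these shares are the background for the gene groups below, most of whose members are above that level. In 2688 of the 2698 called genes the 3 treated arrays lay wholly beyond the 3 controls. Such a separation was seen in 27.4% of all genes. The median change over all genes was -0.003. In bulk RNA, fewer cells with a transcript and less of it per cell cannot be told apart. When the arrays were quantile normalized again, the calls were 1143 higher and 1868 lower, so that 38.0% of calls were rises instead of 48.6%, while the median change over all genes moved to -0.037. More calls fell than rose in the fit as described, but more rose than fell when any single array was left out (964 to 1512 higher, 820 to 1411 lower). Of the 2698 calls, 1446 were kept whichever array was left out, as were 221 of the 232 2-fold rises and 62 of the 63 2-fold falls.

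**Figure D1:**
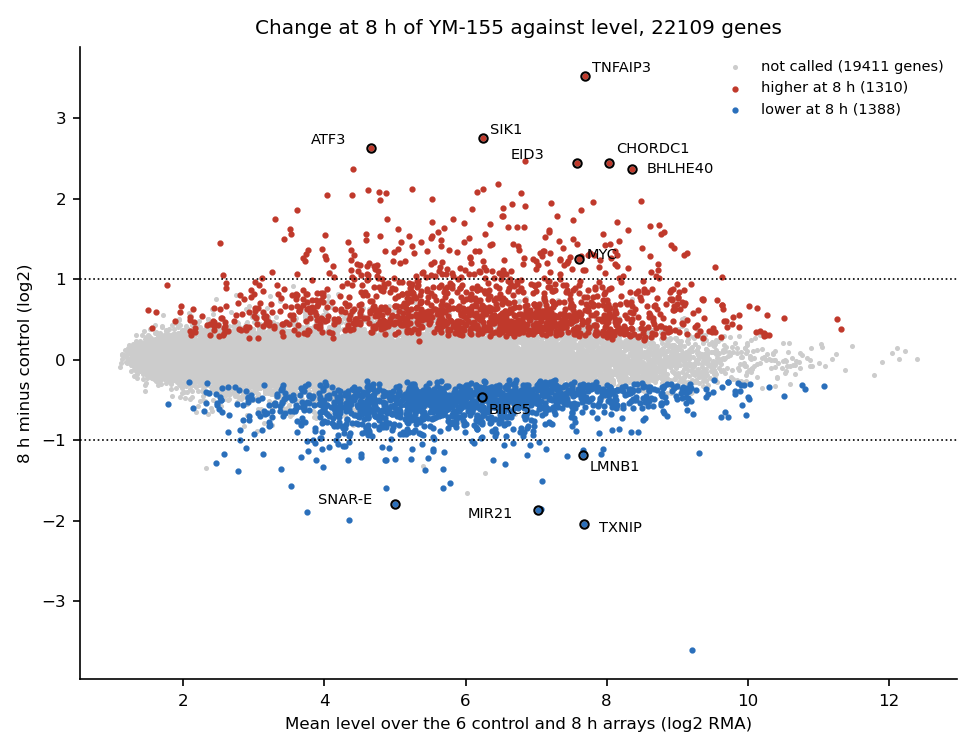
Each point is 1 of 22109 genes, with its mean level over the 6 arrays (log2 RMA) on the horizontal axis and the 8 h minus control difference (log2) on the vertical axis; red genes were called higher, blue genes lower and grey genes were not called, and dotted lines mark 2-fold. The 232 genes called above the upper line outnumber the 63 below the lower line, with TNFAIP3 at the top and TXNIP the lowest of the labelled genes. The single point far below it is the unnamed locus LOC100287834, at -3.61.

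The largest rise belonged to TNFAIP3, which encodes the ubiquitin-editing enzyme A20, a feedback inhibitor of NF-kB signalling. Its level was 5.70, 5.41 and 6.66 on the control arrays and 9.47, 9.48 and 9.41 on the 8 h arrays, a difference of 3.53 (SE 0.25, limma adjusted p = 2.31e-05). The treated arrays lay close together and well above the controls, of which replicate 3 was the highest. SIK1, a salt-inducible kinase that restrains CREB coactivators, went from 4.58, 4.77 and 5.26 to 7.68, 7.64 and 7.58, again with control replicate 3 the highest control. ATF3, a stress-induced bZIP repressor, went from 2.83, 3.68 and 3.52 to 5.99, 5.99 and 5.94. CHORDC1, an HSP90 cochaperone, went from 6.91, 6.83 and 6.69 to 9.21, 9.21 and 9.35, and here control replicate 3 was the lowest. EID3, a testis-expressed relative of the SMC5-SMC6 subunit NSMCE4A, went from 6.37, 6.39 and 6.34 to 8.78, 8.74 and 8.90, and had the lowest adjusted p of the 20 largest rises (4.03e-07). BHLHE40, a repressor of the circadian clock, went from 7.23, 6.92 and 7.38 to 9.61, 9.61 and 9.41. In none of these 6 genes did the groups overlap, and each call was kept in all 15 of the alternative gene-level analyses.

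The other genes among the 20 largest rises covered RNA metabolism, transport and signalling. NOCT (nocturnin, a rhythmically expressed phosphatase of the deadenylase family) rose by 2.48, and YOD1, a deubiquitinase, by 2.12. SLC2A3, the glucose transporter GLUT3, rose by 2.13 and SLCO4C1, an organic anion transporter, by 2.09. PRDM1, the repressor BLIMP1, rose by 2.07 and KDM6B, a histone H3 lysine demethylase, by 2.07. IL6R, the interleukin 6 receptor, rose by 2.00, the kinase NUAK2 by 1.99, the DENN domain gene DENND2C by 2.05 and KIAA1549L by 2.12. FOSB, CSRNP1, CXCL8 and DUSP1 complete the 20 and are described with their groups. Most of the 20 had a larger SD over the controls than over the treated arrays. FOSB had an SD of 0.82 over the controls and 0.18 over the treated arrays.

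**Figure D2:**
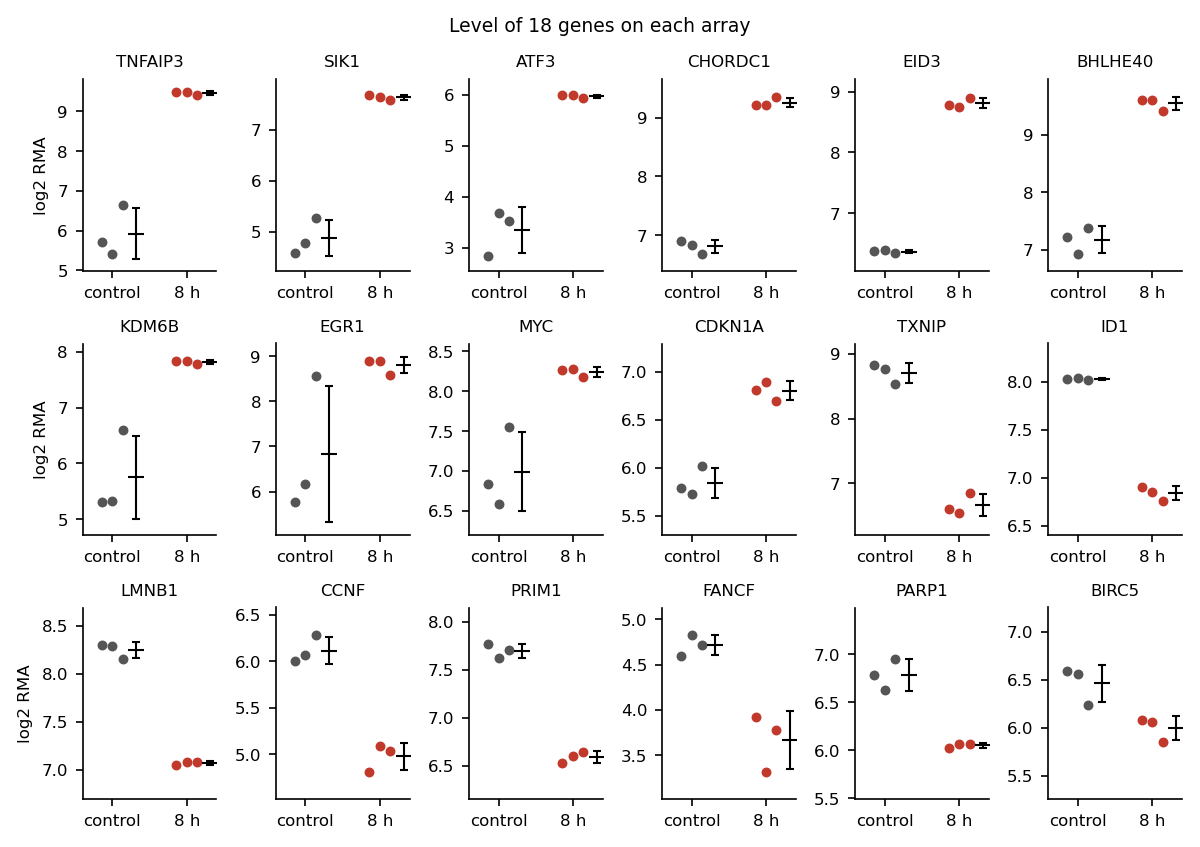
Each panel shows 1 gene, with its level (log2 RMA) on the 3 control arrays (grey, replicates 1 to 3 from left to right) and on the 3 arrays of 8 h of YM-155 (red), and the mean with its SD as a bar; vertical scales differ between panels. Control replicate 3 is the highest control for TNFAIP3, KDM6B, EGR1 and MYC, while CHORDC1, EID3, ID1 and LMNB1 show narrow controls.

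The falls were smaller and included several nuclear and proliferation genes. TXNIP, which encodes the thioredoxin-interacting arrestin that limits glucose uptake, fell by 2.04, from 8.82, 8.77 and 8.53 to 6.60, 6.54 and 6.86 (SE 0.11, limma adjusted p = 8.91e-06). LMNB1, lamin B1 of the nuclear envelope, fell by 1.18, from 8.30, 8.29 and 8.15 to 7.05, 7.08 and 7.08. ID1, an inhibitor of DNA binding and a target of BMP signalling, fell by 1.19, from 8.03, 8.04 and 8.02 to 6.90, 6.86 and 6.76. The 6 arrays of each of these genes separated into their groups with a gap much wider than the spread inside either group. CDCA7, a cofactor of the chromatin remodeller HELLS, fell by 1.36, CCNF, which encodes cyclin F, by 1.14, and BORA, an activator of the Aurora A kinase, by 1.14. The zinc finger genes ZKSCAN3, ZNF79, ZNF436 and ZSCAN16 fell by 1.59, 1.24, 1.21 and 1.17. SERTAD4 fell by 1.59, the orphan receptor gene GPR180 by 1.24, ZFYVE28 by 1.23 and RIBC2 by 1.24. H2BC14, a replication-dependent histone H2B gene, fell by 1.53.

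Several of the 20 largest falls were RNAs that are not translated. MIR21, the precursor of miR-21, fell by 1.87 and SNAR-E, a small RNA that binds NF90, by 1.79, from 5.59, 5.72 and 6.38 to 3.51, 4.05 and 4.76. The SNAR-E groups did not overlap, but its treated arrays were spread over more than 1 log2 unit. VTRNA1-3, a vault RNA, fell by 1.25. SMYD3-IT1, an intronic transcript of SMYD3, fell by 1.29 and COX10-DT, a divergent transcript of COX10, by 1.23. The largest fall of any called gene was outside the naming rule and is mentioned because its value stood out: the unnamed locus LOC100287834 went from 10.03, 11.51 and 11.51 to 7.46, 7.69 and 7.07, a difference of -3.61 (limma adjusted p = 0.000379). At 20 h its difference from control was -0.93 (limma adjusted p = 0.117).

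Many early transcription factors rose. AP-1 is a family of dimeric bZIP factors made of FOS, JUN, ATF and MAF proteins. Of 14 AP-1 and related genes, 7 rose and 0 fell, with a median change of 0.53. FOSB went from 4.83, 4.96 and 6.31 to 7.65, 7.67 and 7.34, without overlap, although control replicate 3 was more than 1 unit above the other controls. MAFF rose by 1.20, FOSL2 by 0.82 and JUN by 0.70. The family did not move as one. FOS itself was at 5.26, 5.17 and 6.29 in controls and 6.03, 5.91 and 5.64 at 8 h, overlapping because of control replicate 3, and was not called (adjusted p = 0.581). FOSL1, at 9.97, 9.89 and 10.86 in controls, differed by 0.07 and was not called. JUNB differed by 0.77 (adjusted p = 0.0981), with control replicate 3 at 7.24 within the range of the treated arrays, and was not called. JUND, whose groups overlapped, and MAFG rose by 0.67 and 0.39, but both calls ended when some single arrays were left out (adjusted p up to 0.149 and 0.148). Without control replicate 3, 9 of the 14 rose and 0 fell, and with renewed quantile normalization 5 rose and 1 fell.

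Of 16 EGR, NR4A and other early genes, 10 rose and 1 fell, with a median change of 0.90. All 3 nuclear receptors of the NR4A family rose, NR4A2 by 1.63, NR4A3 by 1.57 and NR4A1 by 1.18. CSRNP1, a nuclear protein first described as induced by AXIN1, had a mean of 5.12 ± 0.07 (SD, n = 3) in controls and a rise of 2.09. ETS2, an ETS factor downstream of RAS, rose by 1.86 and CCN2, connective tissue growth factor, by 1.09. EGR3 rose by 0.99. EGR1 went from 5.77, 6.18 and 8.55 to 8.90, 8.90 and 8.59. Control replicate 3 lay just below the lowest treated array and more than 2 units above the other controls, and the call (adjusted p = 0.0467) ended when some single arrays were left out (up to 0.156). ARC (0.82), IER2 (0.21) and SRF (0.17) were not called. Of the 16, 12 rose without control replicate 3. IER5L was the 1 gene lower, by 0.47, a call that also ended in some leave-one-out fits.

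Feedback inhibitors of ERK signalling were called in both directions. ERK is the terminal kinase of the RAS-RAF-MEK cascade, and dual-specificity phosphatases (DUSP) and Sprouty proteins restrain it. Of 20 such genes, 9 rose and 3 fell, with a median change of 0.35. The counts were 12 and 2 without control replicate 3, and 1 gene fell when any other of the 6 arrays was left out. DUSP1, a nuclear phosphatase of p38 and JNK as well as ERK, went from 7.22, 7.25 and 8.03 to 9.49, 9.53 and 9.39. The phosphatases DUSP10, which prefers p38 and JNK, and DUSP5, a nuclear ERK phosphatase, rose by 1.66 and 1.44, while DUSP6 and DUSP4 fell by 0.31 and 0.33, calls that ended in some alternatives. Among the Sprouty genes, SPRY2 rose by 1.15 and SPRY1 fell by 0.76. TRIB1, a pseudokinase adaptor, rose by 1.11. The ETS genes ETV4 and ETV5, used as readouts of ERK output, differed by -0.04 and 0.21 and were not called. Of 11 ERBB ligands and receptors, 4 rose and 0 fell: the ligands EREG (epiregulin, 1.56), HBEGF (1.44) and NRG1 (0.63) and the receptor EGFR (0.48). TGFA (0.01) and EGF (-0.09) were not called.

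In the NF-kB group, 8 of 19 subunits and feedback inhibitors rose and 1 fell, with a median change of 0.29. Among the subunits REL rose by 1.43, NFKB1 by 0.94, NFKB2 by 0.77 and RELB by 0.66, while RELA differed by 0.56 (adjusted p = 0.0939) and was not called. Of the inhibitors, TNFAIP3 rose as given above, CYLD, another deubiquitinase, rose by 0.86 and NFKBIE by 1.01. NFKBIA, the gene of the main cytoplasmic inhibitor, was at 7.69, 7.55 and 8.12 in controls and 8.10, 8.05 and 8.08 at 8 h and was not called. Of 20 cytokines and chemokines, 7 rose and 0 fell. CXCL8, the neutrophil chemokine interleukin 8, went from 3.10, 3.06 and 3.93 to 5.50, 5.29 and 5.45, without overlap. IL1A rose by 1.38, LIF by 1.13, TNFSF9 by 0.96, IL11 by 0.79, GDF15 by 0.64 and IL6 by 0.62. TNF (0.14), CCL2 (-0.03) and CXCL2 (-0.40) were not called. Of 18 factors that destabilise messenger RNA or slow translation, 5 rose and 0 fell, among them ZC3H12C (1.20) and the AU-rich element binders ZFP36L1 (0.90) and ZFP36 (0.83). Control replicate 3 was the highest control in CXCL8 and NFKBIA, and without it 10 of the NF-kB genes and 9 of the cytokines rose.

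Growth arrest genes rose in part. GADD45 proteins are small stress sensors that bind PCNA, p21 and MAP kinase kinases. Of 14 genes of this kind, several of them p53 targets, 8 rose and 0 fell, with a median change of 0.45. SESN2, a sestrin that inhibits mTORC1 signalling, rose by 1.42, GADD45A by 1.39 and GADD45B by 1.30. CDKN1A, which encodes p21, went from 5.78, 5.72 and 6.01 to 6.81, 6.89 and 6.70. Well known p53 targets in the same list were not called: MDM2 (0.05), FAS (0.13), ZMAT3 (-0.08), PPM1D (0.11) and TP53INP1 (-0.15). MDA-MB-231 is known to carry mutant p53. Of 13 genes of the salt-inducible kinase and CREB axis, 3 rose and 0 fell: SIK1, CREB5 (1.02) and CREB1 (0.44, a call that ended in some alternatives). SIK2 and SIK3 differed by 0.32 and 0.34 and were not called. Without control replicate 3, 7 of the 13 rose.

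Clock genes were among those that rose. The circadian clock is a loop in which CLOCK and BMAL1 activate PER, CRY and NR1D repressors. Of 20 clock genes, 9 rose and 0 fell, with a median change of 0.37. Besides BHLHE40, the bZIP repressor NFIL3 rose by 1.62, from 6.45, 6.54 and 6.14 to 8.05, 7.96 and 7.96. PER1 rose by 1.35, RORA by 0.65 and CRY1 by 0.53. PER2 went from 4.04, 3.80 and 5.22 to 5.62, 5.61 and 5.54, and BMAL1 from 5.40, 5.53 and 4.24 to 6.22, 6.18 and 6.41. Control replicate 3 lay far above the other controls in PER2 and far below them in BMAL1, and both calls ended in some leave-one-out fits (adjusted p up to 0.0871 and 0.0835). CLOCK (-0.15), BHLHE41 (-0.02) and DBP (-0.11) were not called. Leaving out control replicate 3 gave 12 rises of the 20, and without 8 h replicate 1 or replicate 2, or with both counted as 1 sample, 5 rose.

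Of 23 oxygen-sensing genes and KDM histone demethylases, most of which use oxygen as a cosubstrate, 12 rose and 2 fell, with a median change of 0.45. KDM6B went from 5.31, 5.33 and 6.60 to 7.83, 7.83 and 7.78, with control replicate 3 more than 1 unit above the other controls. KDM7A rose by 1.62, KDM3A by 1.28 and KDM6A by 0.77, while KDM4A fell by 0.57 and KDM3B by 0.30, the latter a call that ended in some alternatives. The hypoxia-responsive genes ADM, which encodes the peptide hormone adrenomedullin, and ANKRD37 rose by 1.66 and 1.35, and EGLN1, an oxygen-sensing prolyl hydroxylase, by 0.53. The transcripts of the hypoxia-inducible factors gave a call for EPAS1 (0.50) and none for HIF1A (0.08).

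In the MYC network, MYC rose by 1.25, from 6.84, 6.58 and 7.55 to 8.26, 8.28 and 8.18. So did 2 of its antagonists, MXD1 by 1.79 and MXI1 by 0.63, and 0 of the 10 genes measured fell (5 rose without control replicate 3). Of 18 KLF and SP zinc finger factors, 5 rose and 0 fell, with KLF5 at 1.18, KLF4 at 0.95 and KLF9 at 0.83 (8 rose without control replicate 3). Of 25 TGF-beta and BMP genes, 5 rose and 2 fell, with 4 and 4 after renewed quantile normalization and 3 higher without 8 h replicate 2. BAMBI, a decoy receptor, rose by 1.33, SKIL, a repressor of SMAD proteins, by 0.92 and BMP2 by 0.85. ID1 fell as given above, while its relatives ID2 (0.29), ID3 (-0.39) and ID4 (0.09) were not called. Of 23 Notch, Wnt and Hedgehog feedback genes, 2 rose and 3 fell, with HES1 at 0.90 and RNF43 at -0.63. Of 14 genes of epithelial-mesenchymal transition, 4 rose and 1 fell, with the repressors SNAI2 (1.62), SNAI1 (0.85) and ZEB1 (0.47) higher.

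Metabolic and stress groups held both single large changes and broader ones. Of 20 glucose transporter, arrestin and thioredoxin genes, 4 rose and 1 fell. SLC2A3 went from 5.33, 5.15 and 5.07 to 7.25, 7.28 and 7.39, and HK2, which encodes hexokinase 2, rose by 1.48. TXNIP and its arrestin relative ARRDC3 moved in opposite directions (-2.04 and 1.58), while ARRDC4, its closest relative, differed by 0.07 and was not called. SLC2A1 (0.31) was not called. Of 22 sterol-sensing and synthesis genes, 10 rose and 1 fell. Sterol synthesis is controlled by SREBP factors, which INSIG proteins hold in the endoplasmic reticulum. INSIG1 rose by 1.56 and INSIG2 by 1.11, the synthesis enzymes HMGCS1 and IDI1 by 1.51 and 1.16, and MYLIP, a ubiquitin ligase of the LDL receptor, by 1.65. The transcripts of the SREBP factors themselves, SREBF1 (0.23) and SREBF2 (0.23), were not called.

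Of 19 genes of the HSP70 and HSP90 machinery, 6 rose and 1 fell. Besides CHORDC1, the HSP40 genes DNAJB1 and DNAJB9 rose by 1.02 and 0.85 and the cochaperone BAG3 by 0.73. HSPH1 (0.26), HSP90AA1 (0.26) and HSF1, the master factor of the heat shock response (-0.09), were not called. Of 15 ubiquitin and autophagy-linked genes, 8 rose and 0 fell (7 and 1 with renewed quantile normalization), among them the LC3 family genes GABARAPL1 (1.09) and MAP1LC3B (1.01) and NFE2L2, which encodes NRF2 (0.86). SQSTM1, which encodes p62, differed by 0.11 and was not called. Of 25 genes of the ATF4 and CHOP pathway of the integrated stress response, 11 rose and 3 fell. ATF4 rose by 0.67 and the cystine transporter SLC7A11 by 1.31, while TRIB3, a target of ATF4 and CHOP, fell by 0.67 and DDIT3, which encodes CHOP, differed by 0.26 and was not called. Of 23 iron, metallothionein and glutathione genes, 4 rose and 2 fell. GCLC and GCLM, both subunits of glutamate-cysteine ligase, rose by 1.20 and 0.96, and NQO1, a quinone reductase, differed by -0.14 and was not called.

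Many genes of DNA replication fell. The replicative polymerases alpha, delta and epsilon copy DNA from primers made by primase, on a PCNA clamp that replication factor C loads. Of 30 genes of this machinery, 0 rose and 18 fell (next to 11.2% of genes above the median level), with a median change of -0.38. PRIM1, the catalytic subunit of primase, went from 7.77, 7.62 and 7.70 to 6.53, 6.60 and 6.64. POLE2, the second subunit of polymerase epsilon, fell by 1.10, from 6.20, 6.09 and 5.99 to 4.88, 5.05 and 5.05. Neither pair of groups overlapped. DSCC1, a subunit of an alternative clamp loader, fell by 0.90 and RFC4, of the main clamp loader, by 0.68. Not every subunit of these complexes was called. POLE, the catalytic subunit of the same polymerase, differed by -0.10, and PRIM2, the partner of PRIM1, by -0.26, and neither was called. Without control replicate 3, 14 of the 30 fell and 1 rose, and 14 fell with replicate number as a block. Without 8 h replicates 1, 2 and 3 in turn, 11, 10 and 11 fell.

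Of 19 genes of the Fanconi anaemia pathway and its effectors, which repair interstrand crosslinks, 0 rose and 11 fell, with a median change of -0.55. FANCF, an adaptor of the core complex, went from 4.60, 4.83 and 4.72 to 3.92, 3.31 and 3.78. FANCL, the ubiquitin ligase of that complex, fell by 0.92, FANCM, its anchor on DNA, by 0.86, and FANCI, which with FANCD2 is ubiquitinated at a crosslink, by 0.82. Of 18 topoisomerase and adduct repair genes, 0 rose and 5 fell (8 without control replicate 3, and 9 with renewed quantile normalization). PARP1, the main poly(ADP-ribose) polymerase, went from 6.78, 6.62 and 6.95 to 6.02, 6.07 and 6.07. The checkpoint kinase gene ATR fell by 0.59 and TOP2A, the topoisomerase of dividing cells, by 0.49, while TOP1 (0.29) and TOP2B (0.13) were not called. Cell cycle regulators were mixed. Of 24 cyclins, CDKs and inhibitors, 5 rose and 4 fell, with CCNF and CCNA2, cyclin A2, lower (-1.14 and -0.52) and CKS2, a small CDK subunit, higher (0.57). CDK1 (-0.10) and CCNB2 (-0.24) were not called. Of 18 E2F and RB family genes, 1 rose and 3 fell, with E2F6, a repressive E2F, at 0.59 and LIN9, of the MuvB complex, at -0.72. With renewed quantile normalization, 7 of the cyclin group and 6 of the E2F group fell. Without 8 h replicate 1 or 2, 2 of the cyclin group and 1 of the E2F group fell, and 2 of the cyclin group also fell without control replicate 2. Without 8 h replicate 1, 3 of the cyclin group rose. When control replicate 3 was left out, 7 of the cyclin group and 2 of the E2F group rose, and 5 and 4 fell.

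P-TEFb, the kinase CDK9 with cyclin T, releases paused RNA polymerase II and is held inactive by the 7SK RNA and HEXIM1. Of 19 genes of this group, 6 rose and 1 fell. The elongation factor genes ELL, AFF4 and ELL2 rose by 0.90, 0.68 and 0.62, as did CDK13 (0.86). CDK9 fell by 0.46. HEXIM1, whose transcript is used as a readout of P-TEFb release, was at 6.94, 6.97 and 6.69 in controls and 6.63, 6.64 and 6.95 at 8 h, and was not called. The 7SK RNA gene RN7SK differed by -0.41 (adjusted p = 0.0665) and was not called. Among 27 subunits of RNA polymerases I, II and III, 3 rose and 2 fell, next to the background of 10.7% and 11.2%. Of 41 Mediator and TFIID genes, 6 rose and 2 fell, with the cell-type-restricted TFIID subunit TAF4B at 0.91 and TAF5 at -0.71. Leaving out single arrays gave 1 to 3 rises and 1 or 2 falls among these 41, and 1 to 5 rises and 0 or 1 fall among the polymerase subunits. With renewed quantile normalization the falls were 3 in the P-TEFb group, 5 among the polymerase subunits and 3 among the Mediator and TFIID genes, of which 3 rose.

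Of 11 survivin partners and other inhibitors of apoptosis, 0 rose and 3 fell, but 1 fell without control replicate 2 or 8 h replicate 1 or 3. BIRC5 was at 6.59, 6.56 and 6.24 in controls and 6.08, 6.06 and 5.85 at 8 h. The groups did not overlap, but the gap between control replicate 3 and the nearest treated array was small, and the call ended in several leave-one-out fits (adjusted p up to 0.114). INCENP, the scaffold of the complex that survivin joins, fell by 0.42. XIAP (-0.11), BIRC2 (-0.01) and AURKB, the kinase of that complex (-0.04), were not called. Of 15 caspases and death receptors, 2 rose and 4 fell. FADD, the adaptor of death receptors, fell by 0.76 and CASP8, its caspase, by 0.70, while TNFRSF10B, which encodes the TRAIL receptor DR5, rose by 0.55. Of 13 genes of drug uptake and efflux, 0 rose and 0 fell in limma. The carrier gene SLC35F2 was at 8.28, 8.13 and 8.45 in controls and 8.21, 8.21 and 8.20 at 8 h, and the groups overlapped. With renewed quantile normalization 1 of the 13 fell. Of 20 factors of mitochondrial transcription and translation, 2 rose and 8 fell, with TFB1M, an rRNA methyltransferase, lower by 0.71 and the helicase gene TWNK higher by 0.56. In a fit blocked on replicate number, 3 of the 20 fell, and 5 with arrays centred on their medians. The falls were 1 without 8 h replicate 1 or 2, 3 without replicate 3, 3 and 2 without control replicates 1 and 2, and 7 without control replicate 3. The other lists are given by their counts. Of 17 CLK kinase and SR protein genes 4 rose (1 to 3 when single arrays were left out) and 0 fell. Of 9 polyamine genes 2 rose and 0 fell, of 16 integrins 1 and 0, and of 26 tRNA and rRNA modification enzymes 0 and 4. Of 13 genes in the noncoding host list 2 rose and 1 fell, the latter being MIR21, the microRNA precursor described above. Of 17 actin and SRF cytoskeletal genes 2 rose and 1 fell. Of 15 measured members of the basal-like line list, which also held genes expected low in this line, 2 rose and 1 fell.

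**Figure D3:**
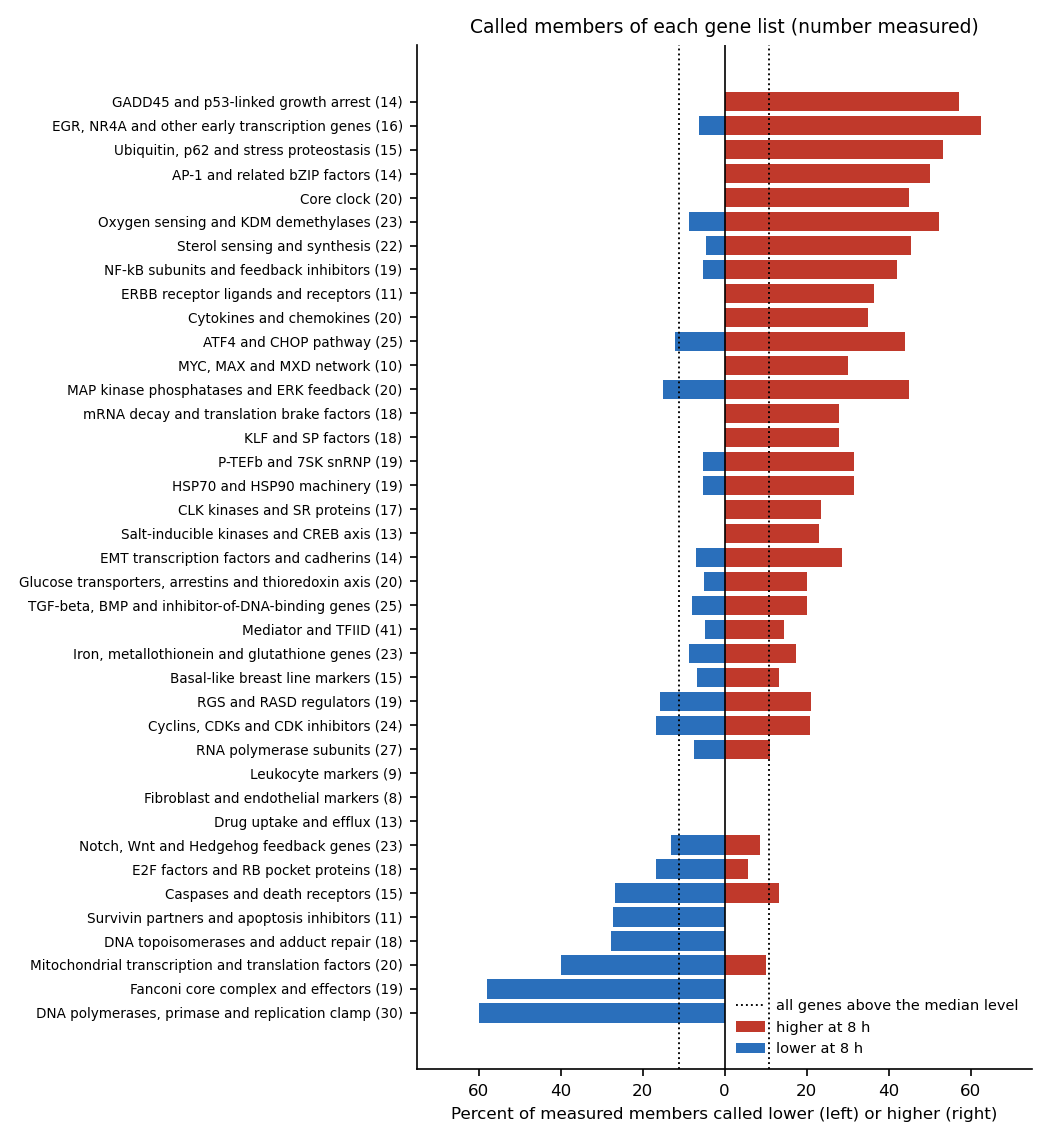
Bars show, for the gene lists drawn, the percent of measured members called higher (red, right) or lower (blue, left) at 8 h. The number measured is in brackets. Dotted lines mark 10.7% higher and 11.2% lower, the shares among all genes above the median level. The polyamine, integrin, tRNA and rRNA modification, noncoding host, and actin and SRF lists are not drawn. Growth arrest, early transcription, ubiquitin and p62, AP-1 and clock lists lie at the top and DNA polymerase and Fanconi lists at the bottom.

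Small RNA probe sets held some of the largest changes. MicroRNA genes are transcribed as long precursors and cut to hairpins and then to mature strands of about the length printed here. The arrays hybridised total RNA and their probe sets do not separate mature strands from precursors. Mature sequences of hairpins described below are shown from RefSeq (GRCh38.p14), 5′ to 3′, with bases 2 to 8, the seed that pairs with targets, in capitals.
hsa-miR-21-5p (chr17:59841273-59841294, + strand): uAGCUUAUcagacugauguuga
hsa-let-7a-5p (chr11:122146568-122146589, - strand): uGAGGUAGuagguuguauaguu
hsa-let-7i-5p (chr12:62603691-62603712, + strand): uGAGGUAGuaguuugugcuguu
hsa-miR-100-5p (chr11:122152275-122152296, - strand): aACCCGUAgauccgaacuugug
hsa-miR-125b-5p (chr11:122099809-122099830, - strand): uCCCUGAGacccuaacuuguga
hsa-miR-181b-5p (chr1:198858925-198858947, - strand): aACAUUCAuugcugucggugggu
hsa-miR-221-3p (chrX:45746180-45746202, - strand): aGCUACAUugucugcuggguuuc
hsa-miR-222-3p (chrX:45747036-45747056, - strand): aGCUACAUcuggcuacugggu
hsa-miR-4668-5p (chr9:111932100-111932122, + strand): aGGGAAAAaaaaaaggauuuguc
hsa-miR-4742-3p (chr1:224398227-224398249, - strand): uCUGUAUUcuccuuugccugcag
The let-7a and let-7i strands share the seed GAGGUAG, and miR-221 and miR-222 share GCUACAU. MIR221 fell from 7.92, 7.81 and 7.78 to 6.40, 6.20 and 6.39, while MIR222, less than 1 kb away, was at 6.29, 5.90 and 6.59 and 5.69, 5.85 and 6.32, with overlapping groups, and was not called. Among the let-7 hairpins, MIRLET7A2 fell by 1.86, MIRLET7I by 0.65 and MIRLET7G by 0.64, and the other 6 measured were not called, MIRLET7D among them (-0.75, adjusted p = 0.0762).

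The MIR21 probe set, for a microRNA that is abundant in many tumours, went from 8.15, 8.13 and 7.61 to 6.04, 6.16 and 6.08. On chromosome 11, the hairpins MIR100 and MIRLET7A2 lie in 1 host transcript, MIR100HG. MIR125B1 is on the same chromosome and strand, but overlapping genes were not looked up for it, as its mean was below the median level. All of these hairpins fell. MIRLET7A2 went from 8.16, 8.24 and 7.62 to 6.25, 6.17 and 6.02, MIR100 from 6.09, 6.30 and 5.83 to 4.55, 4.81 and 5.20 and MIR125B1 from 4.68, 4.67 and 4.59 to 2.67, 3.51 and 3.78. The host was at 4.44, 4.56 and 4.28 and 4.43, 4.42 and 4.50 and was not called. MIR181B1 fell by 0.97 while MIR181A1HG, the transcript around it, differed by 0.10 and was not called. Rises were seen for hairpins in introns: MIR4742 went from 5.35, 5.52 and 4.58 to 6.95, 6.79 and 7.34, whereas its host WDR26 differed by 0.38 (adjusted p = 0.0755) and was not called. MIR4668 rose by 2.37 and its host UGCG, glucosylceramide synthase, by 0.85. At 20 h the MIR4668 difference from control was 0.09. Of 1018 microRNA genes measured, 41 rose (4.03%) and 40 fell (3.93%), next to 5.93% and 6.28% of all genes, and among the 226 above the median level 18 rose and 17 fell. An overlapping gene was measured for 14 of these 18 and 10 of these 17. It was higher for 3, lower for 1 and not called for 10 of the first, and higher for 0, lower for 2 and not called for 8 of the second. Overlap was by position on either strand, so an overlapping gene need not be the host. Where several genes overlapped, any called gene was counted. The 1 lower was TLR6 at MIR574 (-0.70), where FAM114A1 also overlapped and was not called (0.01). Whether a small RNA and its host changed by different amounts was not tested.

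Small nucleolar and Cajal body RNAs guide the modification of ribosomal and spliceosomal RNA, and most are cut from introns of host genes. Of 238 measured, 50 rose (21.01%) and 9 fell (3.78%), next to 5.93% and 6.28% of all genes. Of the 131 above the median level 47 rose and 8 fell, 48 and 7 without control replicate 3. Among all genes above that level 10.7% rose and 11.2% fell. SNORA38B went from 5.25, 5.65 and 5.87 to 7.52, 7.59 and 7.32, while its host NOL11 was at 9.22, 9.10 and 8.78 and 8.98, 8.93 and 9.24. SCARNA4 rose by 1.71 and its host KHDC4 by 0.36. SNORD92 and SNORD53, both in WDR43, rose by 1.56 and 0.90, and WDR43 by 0.56. Some members fell: SNORD41 went from 9.86, 10.01 and 9.77 to 8.85, 8.72 and 8.61, and SNORD75 and SNORD78 fell by 0.76 and 0.54 while their host GAS5 differed by 0.13 and was not called. The SNORD78 call ended in some alternatives, as did that of KHDC4. Of the 47 that rose, 31 had a measured overlapping gene, on either strand, which was higher for 9, lower for 4 and not called for 18. SNORA57 counts as lower through CSKMT (-0.59), while LBHD1, which also overlaps it, was not called (-0.09). Of 143 small nuclear RNA genes, many of them pseudogene copies that share sequence, 17 rose (11.89%) and 0 fell, next to 5.93% and 6.28% of all genes. Above the median level 10 of 24 rose, 9 without control replicate 3, and 0 fell. RNU12, of the minor spliceosome, went from 6.07, 5.94 and 6.71 to 8.33, 8.22 and 8.03. The next largest rises above the median level were those of RNU4-9P (1.748), RNU5E-4P (1.71) and RNU5B-1 (1.41). RNU4ATAC rose by 0.69. RNU11 rose by 1.19, but control replicate 3 (8.94) lay near the treated arrays and the call ended in some alternatives. RNU6ATAC differed by 0.08 and was not called.

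**Figure D4:**
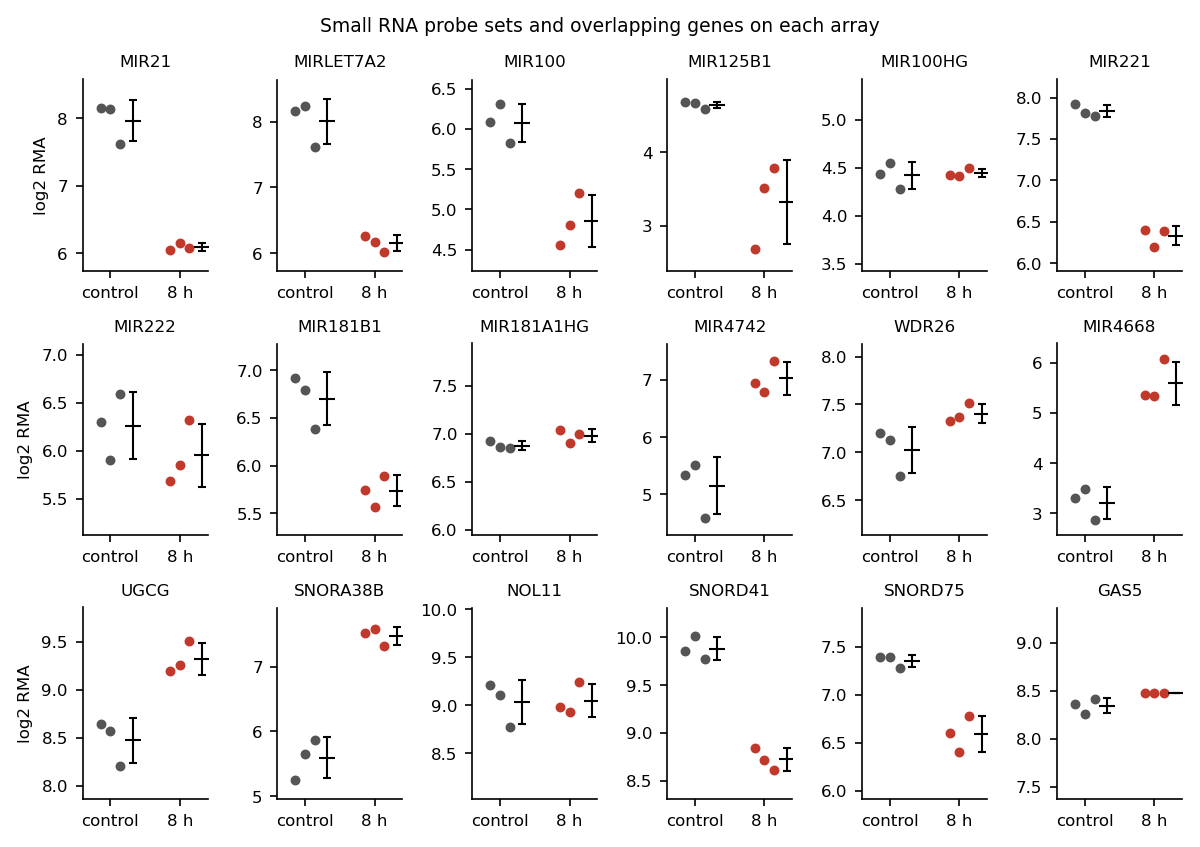
Each panel shows 1 small RNA or overlapping gene, with its level (log2 RMA) on the 3 control arrays (grey) and the 3 arrays of 8 h (red), and the mean with its SD as a bar; vertical scales differ between panels. MIRLET7A2, MIR100 and MIR125B1 are lower at 8 h while the groups of MIR100HG overlap, and SNORA38B is higher while its host NOL11 overlaps.

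Promoters were compared as letters. RefSeq windows (GRCh38.p14) of 300 bases, 250 before to 50 after the gene start, were found for 8282 protein-coding genes above the median level. Where a gene had several windows the first listed was used. The motif TATAAA, the core of the TATA box, was in 5.43% of these windows on either strand, in 10.05% for the 846 genes that rose and in 20.55% (30 of 146) for those at least 2-fold higher. It was in 4.86% for the 988 genes that fell. A narrower window, chosen after seeing the data, asked for the whole motif on the sense strand, within 40 to 16 bases before the start. There it was in 1.71% of all, 12.33% of the 2-fold higher (18 of 146) and 1.32% of the lower genes. Without control replicate 3 the share among 165 genes 2-fold higher was 12.73%. The 18 genes include FOSB, CXCL8, DUSP1, ADM, EREG, INSIG1, HMGCS1, GADD45B and GCLC, of different groups above. They also include PTGS2, which encodes cyclooxygenase 2, with a rise of 1.74, KITLG, the ligand of the KIT receptor, with 1.53, and TUBB2A, a beta tubulin, with 1.51.

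Other motifs were searched on both strands. The AP-1 element TGACTCA was in 2.93% of all windows and 6.16% of the 2-fold higher, and the CREB element TGACGTCA in 3.54% and 6.85% (4.85% without control replicate 3). The inverted pair of heat shock units GAANNTTC was in 4.72% and 8.90%. Among genes that fell, the E2F element TTTGGCGC was in 2.63% against 1.12% of all windows, and TTTGAA, the core of the cell cycle homology region, in 13.66% against 9.70%. TTTGAA was also in 7 of the 32 genes at least 2-fold lower. TTTCCCGC was in 2.77% of all windows and 3.04% of those of genes that fell, and in 3 of the 32. The serum response element CATATTAGG was in 0.10% of all windows and 0.68% of the 2-fold higher, which is 1 of 146. The NF-kB element GGGACTTTC was in 0.34% and 0.68%, the second one, GGGAATTTC, in 0.39% and 1.37%, and the ATF4 element TGATGCAA in 0.50% and 1.37%, all of them 1 or 2 of the 146. The hypoxia core ACGTG was in 27.59% of all windows and 30.14% of the 2-fold higher. The CCAAT box was in 37.09% and 43.15%, and the SP1 core GGGCGG in 71.53% and 74.66%. A match describes letters only, and no match says nothing of a factor.

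The upstream sequences of 5 genes that rose show these matches, 5′ to 3′ on the gene's own strand and ending at the base before the start, with matches to the 5 motifs named above for the TATA box, AP-1, CREB, heat shock and the cell cycle homology region, read on either strand, in capitals. CHORDC1 is shown as the gene with the largest rise among the chaperones and the others for their TATAAA.
CHORDC1 (chr11:90223050-90223299, - strand): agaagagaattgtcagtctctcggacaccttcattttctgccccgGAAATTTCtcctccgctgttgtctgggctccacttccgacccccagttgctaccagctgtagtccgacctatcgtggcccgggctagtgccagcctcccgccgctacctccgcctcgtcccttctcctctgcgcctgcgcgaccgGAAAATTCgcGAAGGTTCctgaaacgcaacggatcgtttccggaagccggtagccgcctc
DUSP1 (chr5:172771196-172771345, - strand): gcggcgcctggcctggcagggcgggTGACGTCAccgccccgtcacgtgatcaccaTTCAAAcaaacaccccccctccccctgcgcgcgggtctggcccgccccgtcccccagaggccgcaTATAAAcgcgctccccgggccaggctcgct
CXCL8 (chr4:73740419-73740568, + strand): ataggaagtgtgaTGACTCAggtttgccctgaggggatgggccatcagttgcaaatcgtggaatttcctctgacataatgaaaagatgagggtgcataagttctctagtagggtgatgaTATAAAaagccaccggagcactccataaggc
FOSB (chr19:45467896-45467995, + strand): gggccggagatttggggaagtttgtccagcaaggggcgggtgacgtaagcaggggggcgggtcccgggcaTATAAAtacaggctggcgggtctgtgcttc
GADD45B (chr19:2476027-2476126, + strand): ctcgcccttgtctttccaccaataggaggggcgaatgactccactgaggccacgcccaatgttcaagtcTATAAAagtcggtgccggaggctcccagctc
The CHORDC1 window holds 3 copies of GAANNTTC, at -205, -60 and -50 from the start, and no TATAAA. In DUSP1 and FOSB the motif TATAAA begins at -30, and in CXCL8 and GADD45B at -31. DUSP1 also holds TGACGTCA at -125 and CXCL8 TGACTCA at -137.

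**Figure D5:**
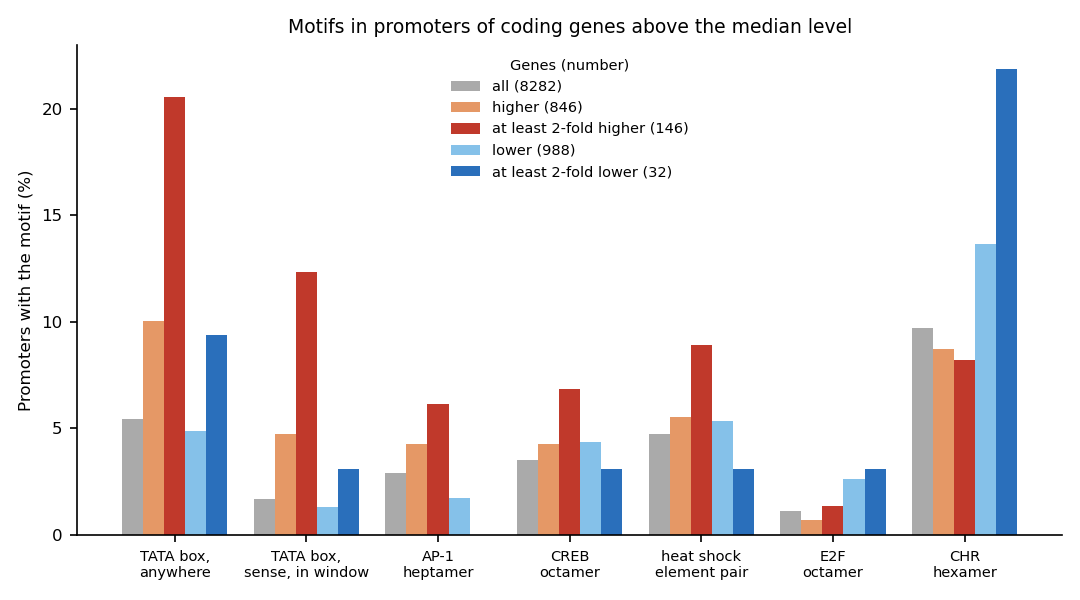
Bars give the percent of promoter windows that hold each motif, for all 8282 coding genes above the median level and for those called higher, at least 2-fold higher, lower or at least 2-fold lower (numbers in the legend). The TATA box is in 20.55% of the 146 genes at least 2-fold higher and 5.43% of all, and the motif of the cell cycle homology region (CHR) in 21.88% of the 32 genes at least 2-fold lower and 9.70% of all.

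The shares called differed with gene span. Genes above the median level were split by the span of their RefSeq gene into 4 bins of equal number. In the longest bin, from 68.12 kb upward, 14.2% of 2711 genes rose and 8.6% fell. In the bin below, from 27.88 kb to 68.12 kb, 10.7% rose and 13.5% fell, and in the next, from 9.99 kb to 27.87 kb, 8.4% rose and 13.1% fell. In the shortest bin 9.4% rose and 10.3% fell. Rises of at least 2-fold were most frequent in the shortest bin, with 67 genes, next to 49 in the longest, but among protein-coding genes alone the counts were 46, 52, 37 and 46 from shortest to longest. Without control replicate 3, 11.8%, 11.4%, 11.8% and 15.0% rose from the shortest bin to the longest. Protein-coding genes alone, on all 6 arrays, gave 7.4%, 9.2%, 10.7% and 14.3%. Without control replicate 3 the coding genes gave 11.0%, 11.4%, 12.1% and 15.1%, with little difference between the 3 shorter bins. Over all genes above the median level without that array, 8.0%, 12.9%, 14.9% and 10.0% fell.

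Levels at 20 h of the lower dose are given beside those at 8 h for the leading genes, without a comparison, since the controls are shared. Against control, the 20 h differences were 4.25 for TNFAIP3, 3.06 for SIK1, 3.57 for ATF3, 3.03 for CHORDC1, 2.32 for BHLHE40 and 1.60 for EID3. For FOS, which was not called at 8 h, the difference at 20 h was 2.92, for JUNB 3.14 and for RN7SK 2.15. TXNIP was at -1.05 at 20 h and at -2.04 at 8 h. For LMNB1 the 20 h value was -2.14, for PRIM1 -2.38, for FANCI -3.26, for TOP2A -2.79 and for BIRC5 -1.24. FANCF stood at -1.01 at 20 h and -1.05 at 8 h. Among the small RNAs, SNORD41 was 0.86 against control at 20 h and -1.16 at 8 h, and MIR222 was 1.45 at 20 h and -0.31 at 8 h.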

How the data were processed

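Total RNA of MDA-MB-231 cells was measured on 9 arrays, 3 in each of 3 groups, and 6 of them enter the comparison. The deposited values are log2 RMA summaries of 53617 probe sets, made by the authors with RMA in Affymetrix Expression Console, per the submitters' processing notes. Versions and the genome build are not given in the sources used here. Because RMA scales all arrays to 1 distribution, a change shared by most genes would not show.

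Of the probe sets, 23558 had 1 gene symbol in the platform table. For the 618 genes with several, the brightest over all 9 arrays stood for the gene. This gave 22109 genes, 1215 without a match in the reference annotation. The median level was 3.89. Group means were fitted to all 9 arrays with limma 3.58.1 in R 4.3.3 (lmFit, eBayes, 6 residual and 4.01 prior degrees of freedom), two-sided, with Benjamini-Hochberg adjustment over all genes. In simulated data of this design with 22109 genes, a change of 1 was recovered for 91% of 100 genes and one of 0.5 for 30%. Far fewer genes were changed there than were called here, and all arrays had the same spread, so these shares do not carry over. The number of arrays limits the precision.

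The genes, the 44 lists and the tests were chosen with earlier results of these data known, so the lists were only counted and are no independent support. Named were the 20 largest rises and falls with separated groups and a mean above the median, without unnamed loci, small RNAs, antisense and pseudogene symbols unless listed, up to 6 called members and the defining members of each list, and 5 per small RNA class. Other genes are named as examples that were not called and were chosen after their values were seen. Alternatives were genes above the median only, all probe sets, the mean of probe sets, renewed quantile normalization, median centring, 2 groups only, trended and robust variance, array weights, a replicate block, 8 h replicates 1 and 2 as 1 sample, and leaving out each array. Chosen after seeing the data were the limit to coding genes for spans and promoters, the TATAAA window, and 2-fold genes without control replicate 3. Tables and figures used Python 3.11.15, pandas 2.3.3, numpy 2.4.6 and matplotlib 3.10.9.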

Additional observations from a re-analysis of the deposited data

Results flagged for a closer look

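The gene tests left out 30059 probe sets with no gene symbol or with several. In the fit of all probe sets, 1411 of them were higher and 643 lower at 8 h (limma, adjusted p under 0.05), 638 and 137 at least 2-fold. They were set apart because they hold a signal in data that the comparisons do not use. Their genes are not named here, and what they measure was not tested.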

How the results depend on the processing

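The 1310 rises and 1388 falls, and the 232 and 63 of at least 2-fold, were recomputed under 16 alternatives. Over all probe sets there were 2529 rises, with 878 rises and 200 falls of at least 2-fold. With 8 h replicates 1 and 2 counted as 1 sample, 844 genes fell. Leaving out single arrays gave 964 to 1512 rises, 820 to 1411 falls, 212 to 260 2-fold rises and 64 to 76 2-fold falls. The falls were 820, 876 and 874 without 8 h replicates 1, 2 and 3. Same-numbered control and 8 h arrays deviated from their group means with correlations of -0.128, -0.185 and -0.318, which gave no sign of pairing by number. Deviations from a mean of 3 arrays are not independent, so these values cannot exclude pairing. With replicate numbers as a block, 1133 genes rose and 1071 fell, 232 and 65 at least 2-fold. The other alternatives moved no count by more than 1.5 times. Array weights, which gave control replicate 3 a weight of 0.419, called 1781 rises and 1935 falls.

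The naming rule gave 243 genes, of which 240 were called, as the rule takes called genes apart from the defining members. Genes named above only as examples that were not called are outside this count. Of the 240, 190 were called in every alternative fitted on genes and 50 not in some of them. The 40 largest rises and falls were called in all. The difference of SLC35F2, which was not called, was -0.08, ran from -0.158 to 0.004 when single arrays were left out, and changed sign without control replicate 3 (adjusted p = 0.991). Causes were not tested. Arrays give no read depth. In the simulated data most changes of 0.5 were missed, but that share does not carry over to these arrays. The median size of the falls called here was 0.52, so changes of this size were among the calls. With 3 arrays a group, a gene not called is still not shown to be unchanged.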
